A study of Mus musculus with 2 samples.

Results

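The genes that make and remove reactive oxygen and nitrogen species were followed in mouse macrophages before and after IL-4. They were 9 genes, taken by name: 5 genes of the phagocyte NADPH oxidase (Cybb, Cyba, Ncf1, Ncf4 and Rac2), the inducible nitric oxide synthase gene Nos2, the superoxide dismutase genes Sod1 and Sod2, and the catalase gene Cat. All 9 were listed in both libraries, out of 15623 genes listed in the series, and 8 of them had at least 10 expected counts over both libraries. The cells were peritoneal macrophages of wild-type C57BL/6 mice, 6 to 8 weeks old, drawn into the cavity with thioglycollate, purified by adherence and kept in low-serum medium. The cells of 1 library were left nontreated (NT) and those of the other were stimulated with IL-4 for 6 h. The methods of the study name 20 ng per mL of IL-4 for stimulating murine macrophages, while the labels of these libraries name no dose. The number of animals behind each library was not given in the sources used here, and a tissue field of the labels reads bone marrow although the source of the cells is peritoneal.

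The phagocyte NADPH oxidase moves electrons from NADPH across a membrane to oxygen and makes superoxide. Its catalytic core is gp91phox (also called Nox2, encoded by Cybb), which is held in the membrane by p22phox (Cyba). In resting cells cytosolic subunits, among them the organizer p47phox (Ncf1) and p40phox (Ncf4), stay apart from it, and they join the core together with a Rac GTPase when a phagocyte is activated. Loss of any of several of these subunits causes chronic granulomatous disease, in which the killing of some ingested microbes is impaired. Superoxide is turned into hydrogen peroxide by the dismutases, Sod1 in the cytosol and Sod2 in mitochondria, and catalase breaks the peroxide down in peroxisomes. Nos2 makes nitric oxide from arginine and is a hallmark of classical (M1) activation, whereas IL-4 drives alternative (M2) activation.

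The NT library held 11035641 expected counts, the read estimates of RSEM, and the IL-4 library held 11250099. They are called NT and IL-4 from here on. Each group had 1 library, so no difference below has a replicate check and none carries a p-value. The M2 gene Arg1 had 30 expected counts in NT and 7711 after IL-4. All 6 macrophage markers examined were listed, and their summed level was 16967 CPM (counts scaled to library size) in NT and 17342 CPM after IL-4. Most of that sum was Lyz2, and of the 6 markers 1 was higher, Csf1r, at 565 and 1057 CPM (log2 ratio 0.90). Neutrophils share the oxidase, and 5 of 9 neutrophil markers, Ly6g, Mpo, S100a9, Camp and Retnlg, were not listed in either library. The other 4 summed to 112 counts in NT and 74 after IL-4. Of 3 adipocyte markers, Plin1 and Cfd were not listed, and Adipoq had 139 counts after IL-4 and 0 in NT. Markers of eosinophils, B cells, T cells, mast cells and dendritic cells summed to at most 76 counts per list in either library. Among them the eosinophil marker Siglecf was lower, at 53 counts in NT and 27 after IL-4 (log2 ratio -0.99). Mesothelial or fibroblast markers summed to 1357 counts in NT and 1159 after IL-4, and of these Msln was lower, at 12 and 2 counts (log2 ratio -2.35). The part of these other cells in the results was not tested.

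Differences between the libraries are given as log2 ratios with NT as the denominator, computed from expected counts scaled to the library totals with 0.5 count added. A gene was counted as higher or lower where this ratio was at least 0.75 in size, the fold the study used for this comparison, and where its 95% interval did not include 0. Past the fold means that both conditions were met. The study paired its fold with limits on P and on the false-discovery rate, which were not applied here. Intervals come from the exact binomial (Clopper-Pearson) limits of the share of a gene's reads that came from IL-4. They cover counting error only, treat reads as independent molecules, and hold no variation between animals or cultures. By this rule 2 of the 8 members with enough counts, Cybb and Ncf1, were lower after IL-4, and 0 were higher. Of 12501 genes with at least 10 counts over both libraries, 7.58% were lower and 4.8% were higher. All 8 members had over 1000 counts in all, and among the 3998 genes as abundant as that, 5.4% were lower and 4.05% were higher. The median log2 ratio was -0.24 over the 8 members and -0.03 over the 12501 genes.

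Ncf1, which encodes the organizer subunit that carries the cytosolic complex to the membrane, showed the largest difference of the 9 genes. It had 4411.84 expected counts in NT and 1439.62 after IL-4, or 156.28 and 49.84 FPKM (fragments scaled to transcript length and library size). The level after IL-4 was lower by 68.0%, a 3.12-fold difference with a counting interval from 2.94 to 3.32. Its log2 ratio was -1.64 (interval -1.73 to -1.56). In such bulk RNA, fewer cells that express a gene and less of its RNA per cell cannot be told apart. Of the 3998 abundant genes, 0.325% had a ratio as low as that or lower. By FPKM, Ncf1 was at rank 428 of the genes listed in NT and at rank 1505 after IL-4. Ncf1 (gene 17969) lies on chromosome 5 from 134220053 to 134229628 (GRCm38).

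Cybb, the gene of the catalytic subunit, was the other member that was lower. It had 12284 expected counts in NT and 6462 after IL-4, or 231.92 and 119.61 FPKM. This was lower by 48.4%, or 1.94-fold with a counting interval from 1.88 to 1.998. The log2 ratio was -0.95 (interval -0.998 to -0.91), and 2.83% of the abundant genes had a ratio as low or lower. Cybb (gene 13058) lies on chromosome X from 9435252 to 9487766. It was still among the more abundant transcripts after IL-4, at rank 600 by FPKM against rank 275 in NT.

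Cyba and Ncf4, partners of these subunits, were not past the fold. Cyba, whose product p22phox stabilizes the catalytic subunit, was the most abundant of the 9 genes, at rank 23 by FPKM in NT and rank 24 after IL-4. Cyba (gene 13057, chromosome 8, 122424771 to 122432940) had 12994 counts in NT and 14110 after IL-4, or 1591.62 and 1695.69 FPKM. Its log2 ratio was 0.09 (interval 0.06 to 0.13). Ncf4, which encodes the p40phox subunit that binds phosphatidylinositol 3-phosphate on phagosomes, had 1639 and 1789 counts, or 102.25 and 109.41 FPKM. Ncf4 (gene 17972, chromosome 15, 78244164 to 78262582) had a log2 ratio of 0.10 (interval 0.00 to 0.20). The intervals of Cyba and Ncf4 lay wholly above those of Cybb and Ncf1.

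Rac2, the Rac GTPase of blood cells that joins the active oxidase, had 2949.87 expected counts in NT and 2479.79 after IL-4, or 87.52 and 72.13 FPKM. Rac2 (gene 19354, chromosome 15, 78559169 to 78572783) had a log2 ratio of -0.28 (interval -0.36 to -0.20), which is not past the fold. Its ubiquitous relative Rac1, which can serve the oxidase in macrophages, had 212.15 FPKM in NT and 211.64 after IL-4, a log2 ratio of 0.00 (interval -0.06 to 0.05). Cybc1, which encodes a chaperone needed for gp91phox and p22phox to mature, had 572 counts in NT and 883 after IL-4. Its log2 ratio was 0.60 (interval 0.45 to 0.75), also within the fold.

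**Figure D1:**
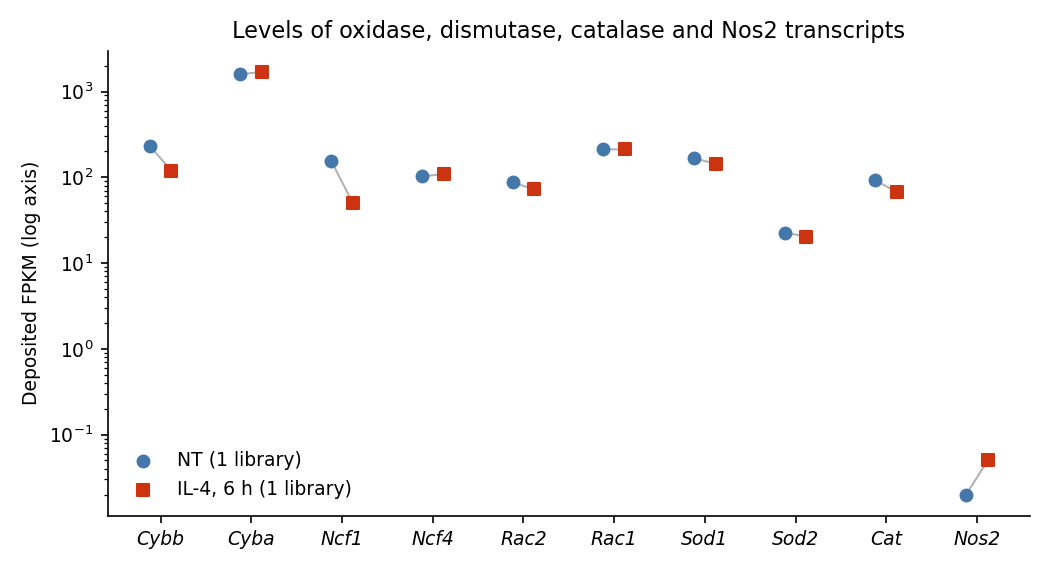
Deposited FPKM (log axis) of the 9 genes with Rac1, 1 point per library, circles for NT and squares for IL-4, with no error bars since each group has 1 library. The wide gaps are those of Cybb (231.92 against 119.61) and Ncf1 (156.28 against 49.84), while Cyba stays near the top in both libraries and Nos2 lies at or under 0.05.

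These differences changed the proportions of the oxidase transcripts to each other. For 6 pairs of genes the change of their count ratio was computed, a quantity that does not depend on the scaling between libraries, and its 95% limits are exact conditional ones for counting error. Cyba exceeded Cybb 6.86-fold in FPKM in NT and 14.2-fold after IL-4, and the log2 change of Cybb over Cyba was -1.05 (interval -1.10 to -0.99). Such a change is not corrected for the trend of the ratios with transcript length, described below. Cybb transcripts, at 4750 bases, are longer than those of Cyba, at 763.01 bases in NT. Less the median ratio of genes of like length, Cybb was at -0.77 and Cyba at -0.09. Ncf1 was at 1.53 times the level of Ncf4 in NT and at 0.456 times that level after IL-4. The log2 change of Ncf1 over Ncf4 was -1.74 (interval -1.87 to -1.61). Between the genes that were lower, Ncf1 over Cybb had a log2 change of -0.69 (interval -0.79 to -0.59).

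The order of Ncf1 and Ncf4 by FPKM therefore differed between the libraries. In the NT library Ncf1 (156.28, with exact Poisson limits from 152 to 161) was above Ncf4 (102.25, limits 97.4 to 107). In the IL-4 library Ncf4 (109.41, limits 104 to 115) was above Ncf1 (49.84, limits 47.3 to 52.5), and in neither library did the limits overlap. Between the Rac genes, Rac2 over Rac1 had a log2 change of -0.28 (interval -0.37 to -0.18).

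**Figure D2:**
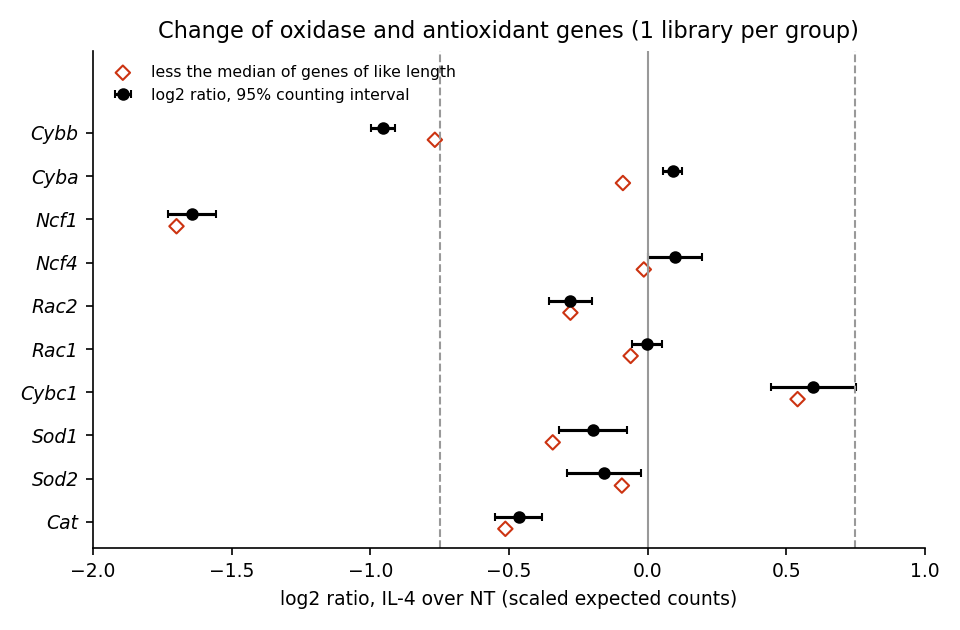
The IL-4 over NT log2 ratio for the 8 members with enough counts and for Rac1 and Cybc1, as black points with 95% counting intervals, and less the median ratio of genes of like length as open diamonds. Dashed lines mark 0.75 in either direction, and Cybb and Ncf1 alone lie past the lower line, Cybb at -0.77 and close to it once length is taken into account.

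Transcript length had to be considered, since the log2 ratio fell with length across the 8461 genes with at least 200 counts (Spearman correlation -0.45, across genes of the same 2 libraries). Genes as long as Cybb, 4750 bases, had a median ratio of -0.19. With that median subtracted the ratio of Cybb was -0.77 (interval -0.81 to -0.72), still past the fold but with an interval that spans it. Ncf1, with a weighted transcript length of 2548.61 bases in NT and 2556.37 after IL-4, had neighbours with a median of 0.06, and its ratio less that median was -1.70. Subtraction turned the sign for Cyba and Ncf4, whose transcripts are short, with Cyba at -0.09 and Ncf4 at -0.01, neither past the fold. The part of the length trend in these ratios beyond this subtraction was not tested.

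**Figure D3:**
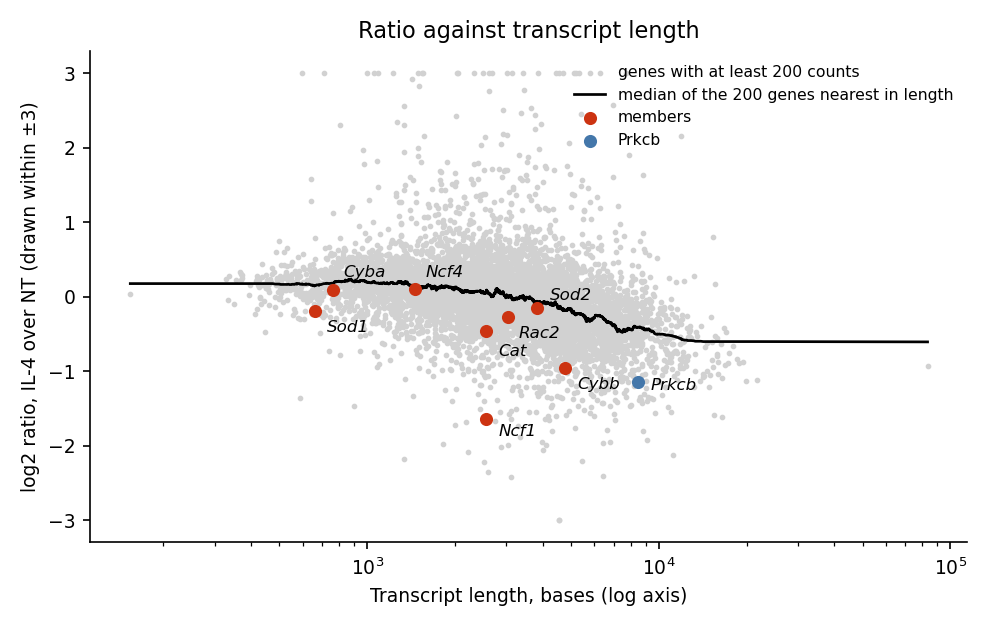
The IL-4 over NT log2 ratio (drawn within ±3) against transcript length in bases (log axis) for the 8461 genes with at least 200 counts in grey, the median of the 200 genes nearest in length as a black line, members in red, and Prkcb in blue. The median line falls from short to long transcripts, and Ncf1 lies far below it at a length where it is close to 0.

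Reads of Ncf1 could be shared with another gene. In GENCODE M21 (GRCm38), Ncf1 overlaps Gtf2ird2 on the opposite strand by 4303 bases, and 8.84% of the 31-base words of the Ncf1 transcripts occur in Gtf2ird2 transcripts. Whether the library kept the strand was not given in the sources used here. Gtf2ird2 had 98 expected counts in NT and 90 after IL-4, few beside those of Ncf1. Cybb, Ncf4, Nos2 and Cat shared no such word with another gene, and Cybb overlaps no annotated gene. Cyba lies almost wholly within Gm20388, an annotated gene on the opposite strand, with an overlap of 8155 bases, and it shared 7.39% of its words with other genes. Sod1 overlaps Scaf4 on the opposite strand by 650 bases. Of the words of Sod2, 26.7% were shared, the largest share among the members, and of those of Rac1, 51.3%. The effect of shared words on the assignment of reads was not tested.

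As Cybb and Ncf1 were lower together while Cyba was not, the 250 bases before their transcription starts are shown. The sequences are those of RefSeq (GRCm38.p6), 5′ to 3′ on the strand of the gene, which is the minus strand for all 3. They lie at chrX:9469325-9469574 for Cybb, chr5:134229626-134229875 for Ncf1 and chr8:122432941-122433190 for Cyba. The RefSeq start used for Cybb lies inside the wider span given above for the gene. That of Ncf1 does so by a few bases, since its window begins at 134229626 and the span ends at 134229628. Capitals mark matches, on either strand, to the paired core bound by interferon regulatory factors, which is GAAA and GAAA on the same strand with 2 bases of any kind between the copies.
Cybb: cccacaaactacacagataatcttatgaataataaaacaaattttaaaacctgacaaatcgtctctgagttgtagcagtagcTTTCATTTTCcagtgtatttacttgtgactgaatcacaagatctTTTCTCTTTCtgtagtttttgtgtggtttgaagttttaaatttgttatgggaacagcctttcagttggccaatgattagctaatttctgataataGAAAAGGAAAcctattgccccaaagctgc
Ncf1: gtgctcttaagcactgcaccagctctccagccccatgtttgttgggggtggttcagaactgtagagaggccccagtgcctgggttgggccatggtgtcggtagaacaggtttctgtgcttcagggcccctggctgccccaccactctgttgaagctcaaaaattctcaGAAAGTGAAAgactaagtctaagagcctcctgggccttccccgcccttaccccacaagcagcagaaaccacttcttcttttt
Cyba: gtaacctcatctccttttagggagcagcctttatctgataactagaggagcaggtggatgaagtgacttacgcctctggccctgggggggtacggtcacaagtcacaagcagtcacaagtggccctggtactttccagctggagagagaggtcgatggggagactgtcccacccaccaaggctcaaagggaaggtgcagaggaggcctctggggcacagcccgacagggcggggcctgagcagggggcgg

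This motif, and a PU.1 core, were chosen after the values of Cybb and Ncf1 were known. Cybb held 3 matches and Ncf1 held 1, GAAAGTGAAA, which ran from 82 to 73 bases before the start. The match of Cybb nearest to its start, GAAAAGGAAA, ran from 29 to 20 bases before it. Cyba, Sod1, Sod2 and Cat held 0. Of 32851 promoter windows of the same length in the RefSeq table, 2.98% held a match. The Stat6 motif named by the study is TTC and GAA with 4 bases of any kind between them, which reads the same on both strands. It was in 0 of the 6 members with a promoter entry and in 5.85% of all windows. With so few windows holding the motif, 0 among 6 members was a likely result in any case. The study placed its motif in the TRIM24 promoter farther upstream than these windows reach. The search therefore cannot show whether these genes have a Stat6 site. GAGGAA, a form of the PU.1 core, was searched on both strands and occurred in Sod2 and Cat alone, and in 23.2% of all windows. Other forms of a PU.1 site were not searched, so a window without GAGGAA may still hold one. Ncf4, Rac2 and Nos2 had no entry in the table. Binding of any factor to these matches, and their part in the ratios, were not tested.

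The dismutases and catalase had ratios nearer to 0 than those of Cybb and Ncf1 and farther from 0 than those of Cyba and Ncf4. Sod1 (gene 20655, chromosome 16, 90220762 to 90226333) had 1163 counts in NT and 1034 after IL-4, or 165.72 and 144.45 FPKM. Its log2 ratio was -0.20 (interval -0.32 to -0.08). Sod2 (gene 20656, chromosome 17, 13007839 to 13018119), which proinflammatory signals induce in many cells, had 965.87 and 883.61 counts, or 22.69 and 20.35 FPKM. Its log2 ratio was -0.16 (interval -0.29 to -0.02). Neither dismutase was past the fold, and the log2 change of Sod2 over Sod1 was 0.04 (interval -0.14 to 0.22), so the cytosolic form was 7.30-fold above the mitochondrial form in NT and 7.10-fold above it after IL-4.

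Cat (gene 12359, chromosome 2, 103453904 to 103485153) lay between the lower oxidase genes and the dismutases. It had 2613 counts in NT and 1930 after IL-4, or 92.47 and 66.96 FPKM, a level lower by 27.5%. Its log2 ratio was -0.46 (interval -0.55 to -0.38), which excludes 0 but is not past the fold. Of the abundant genes, 13.6% had a ratio as low or lower. Relative to Sod1, the log2 change of Cat was -0.27 (interval -0.42 to -0.12).

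Nos2 was at the edge of detection. Nos2 (gene 18126, chromosome 11, 78920787 to 78960226) had 1 expected count in NT and 2 after IL-4, or 0.02 and 0.05 FPKM. Both are under the floor of 3 counts, which is 0.272 CPM in NT and 0.267 CPM after IL-4. No fold is given for Nos2, and a difference was not detectable at this depth.

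**Figure D4:**
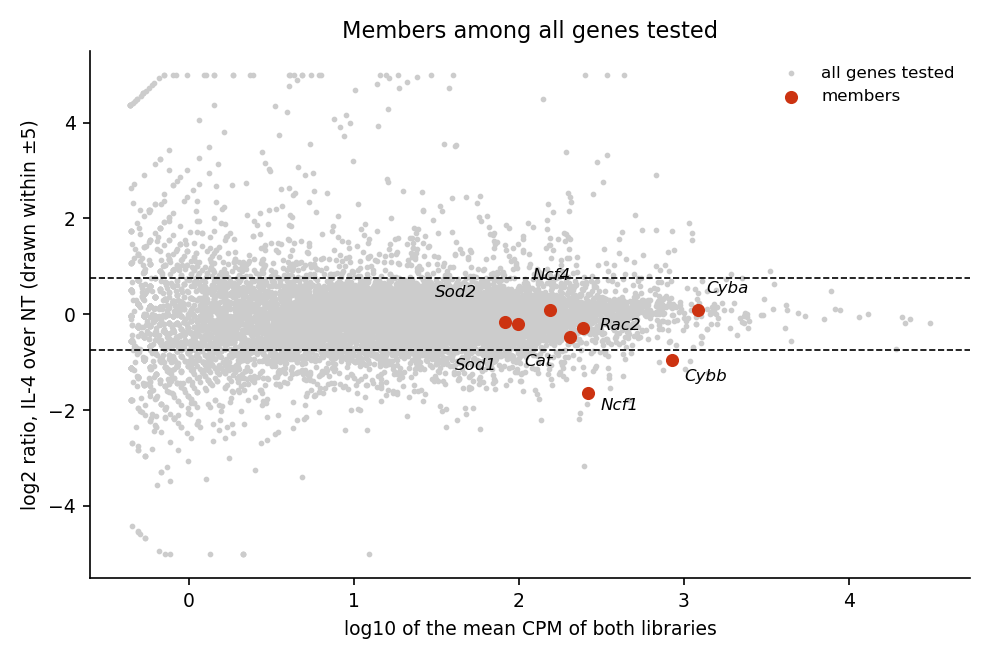
The IL-4 over NT log2 ratio (drawn within ±5) against the log10 of the mean CPM of both libraries, for the 12501 genes with at least 10 counts in grey and the 8 members among them in red. Dashed lines mark 0.75 in either direction, and Cybb and Ncf1 are the members below the lower line, at the abundant end of the plot.

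Genes with roles around the members were taken from lists, 80 genes in all, of which 66 were listed and 63 had at least 10 counts. Of these 63 genes, 5 were lower and 3 were higher after IL-4, against the 7.58% and 4.8% of all genes, and their median log2 ratio was 0.00. The other NADPH oxidases and their partners were nearly silent. Of 9 such genes 7, among them Nox4, Duox1 and Duox2, were not listed, and Nox1 and Noxo1 had at most 16 counts in either library. Nox1 was at 0.53 FPKM in NT and 0.24 after IL-4, against the 231.92 and 119.61 of Cybb.

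Among 16 genes that activate the oxidase or control Rac, 2 were lower and 1 was higher. Prkcb, a protein kinase C isoform of the kind that phosphorylates p47phox, had 2328.45 counts in NT and 1076.58 after IL-4, a log2 ratio of -1.14 (interval -1.25 to -1.04). The transcripts of Prkcb are long, and its ratio less the median of genes of like length was -0.73, no longer past the fold. Prkcd, the isoform more abundant here, had 5001 and 6595 counts, a log2 ratio of 0.37 that is not past the fold. Of the exchange factors for Rac, Vav3 was lower, with 549 and 310 counts (log2 ratio -0.85), and Tiam1, the one with the fewest counts, was higher, with 102 and 242 (log2 ratio 1.21). The 3 more abundant exchange factors of the list, Prex1 (-0.72), Vav1 (-0.58) and Dock2 (-0.14), had log2 ratios below 0 with intervals that exclude 0, but were not past the fold. With the length median subtracted Vav3 was at -0.68, within the fold, Dock2 at 0.15 and Tiam1 at 1.67. Arhgdia and Arhgdib, which hold Rac proteins inactive in the cytosol, had log2 ratios of 0.01 and 0.15, and Hvcn1, the proton channel that balances the charge moved by the oxidase, had a log2 ratio of 0.03, all within the fold.

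Among 16 genes of peroxide removal 2 were lower, and the median was -0.06 on the log2 scale. Gsr, which regenerates reduced glutathione with NADPH, had 961 counts in NT and 525 after IL-4, a log2 ratio of -0.90 (interval -1.06 to -0.75). Gpx3, a secreted glutathione peroxidase, had 209 and 122 counts, a log2 ratio of -0.80 (interval -1.14 to -0.48). The abundant peroxide scavengers Prdx1 (log2 ratio -0.46) and Gpx1 (-0.26) were not past the fold, nor was Gpx4 (0.48), which reduces lipid peroxides. Of 9 genes that supply NADPH, 8 had a ratio below 0, as had 6629 of the 12501 genes. Among these 8, Nadk (log2 ratio -0.01) and Nadk2 (-0.25) had intervals that include 0. In this list 1 gene, Me1, was lower, from 33 to 18 counts with a log2 ratio of -0.88 (interval -1.82 to -0.03). That call was lost with TMM scaling and as FPKM with 1 added, where the ratio was -0.36. Pgd and Idh1, the most abundant of this list, had log2 ratios of -0.33 and -0.38. G6pdx, the entry enzyme of the pentose phosphate pathway, had a log2 ratio of -0.30, and the median of this list was -0.30.

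Around Nos2, 7 of 9 genes of nitric oxide synthesis had enough counts, and 1 was higher. This was Slc7a2, an importer of arginine, with 130.97 counts in NT and 3038.45 after IL-4 and a log2 ratio of 4.50 (interval 4.26 to 4.77). Genes that make or regenerate the cofactor tetrahydrobiopterin, Qdpr (log2 ratio 0.52), Gch1 (0.39), Pts (0.28) and Spr (0.11), were not past the fold. Nor were Asl (0.11) and Ass1 (-0.20), which take part in rebuilding arginine from citrulline. Nos1 was not listed and Nos3 had 5 and 2 counts. Sod3, the extracellular dismutase, was higher at 18 counts against 3, a log2 ratio of 2.37 with a wide interval from 0.78 to 4.96, and it was not past the fold as FPKM with 1 added. Ccs, the copper chaperone of Sod1, had a log2 ratio of 0.07, and Atox1, which carries copper in the cytosol, one of 0.00. Of the peroxisomal oxidases 3 of 9 and of the other enzymes that make reactive species 4 of 6 had enough counts, and 0 in either list met both conditions. Maob, a monoamine oxidase, had 10 counts in NT and 3 after IL-4, a log2 ratio of -1.61 whose interval, -4.26 to 0.19, includes 0. Its more abundant relative Maoa had 285.56 and 187.87 counts. The log2 ratio of Maoa was -0.63 (interval -0.91 to -0.36), which excludes 0 but is not past the fold. In the same list Xdh, whose oxidase form makes superoxide, had 5641 counts in NT and 6315 after IL-4, a log2 ratio of 0.14.

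**Figure D5:**
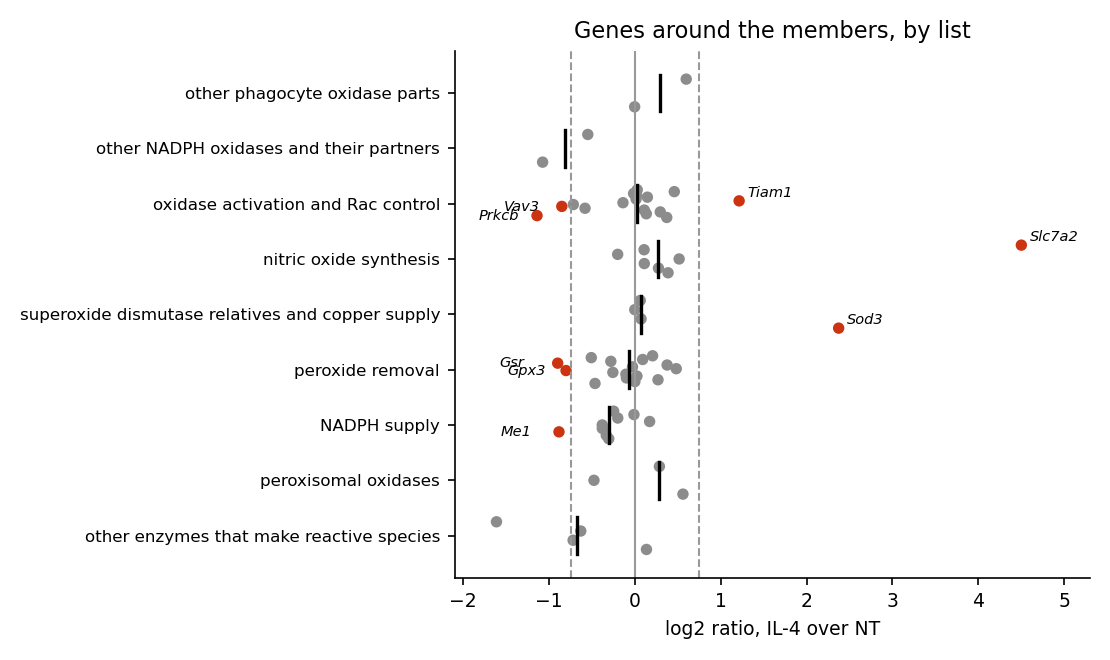
The IL-4 over NT log2 ratio for the 63 genes with at least 10 counts, 1 point per gene and 1 row per list, with list medians as vertical bars and genes past the fold in red. Grey points beyond a dashed line have counting intervals that include 0. Dashed lines mark 0.75 in either direction, and the 8 red genes are spread over 5 of the 9 lists, with Slc7a2 farthest out at 4.50.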

How the data were processed

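RSEM with Bowtie (versions not stated) had been run by the authors on the GRCm38/mm10 genome, and they deposited an expected count, an FPKM value and a transcript length in bases for each gene and library. Expected counts are estimates that need not be whole (77.6% and 77.8% were) and were rounded for the intervals. A gene absent from a table was set to 0. NCBI gene numbers were matched to symbols through a RefSeq table for GRCm38.p6 (15587 of 15623). The deposited FPKM values served for levels.

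Groups came from the sample titles. The members and gene lists were chosen with earlier results of these data known. With 1 library per group no test was run. Ratios, Clopper-Pearson intervals and calls were computed for every gene with at least 10 counts over both libraries. The calling step was tested on simulated counts that held counting error only. That simulation had no variation between animals or cultures and no length trend, so it cannot show how the calls fare against these. For the length trend the 200 genes nearest in length were used, among those with at least 200 counts. All members are named, with genes of the lists that were past the fold and up to 4 of the most abundant per list. The factors given in the closing section were chosen for naming after the values were seen. So were Gtf2ird2, Gm20388, Scaf4, Prex1, Vav1, Dock2, Nadk2, Maoa, Maob, Gch1, Ass1, Siglecf and Msln. The IRF and PU.1 motifs were chosen after the data were seen and the Stat6 motif was planned. Alternatives were TMM (edgeR 4.0.16) and median-of-ratios (DESeq2 1.42.0) scaling, scaling to a total that omits the 100 top genes, FPKM plus 0.1 or plus 1, the length trend, 2 count filters and 3 thresholds. Protein sequences were not used here, and 1 planned gene of the lists is not reported here. Python 3.11.15, scipy 1.17.1, pandas 2.3.3 and R 4.3.3 were used.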

Additional observations from a re-analysis of the deposited data

How the results depend on the processing

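No paired analysis was possible because there was a single library in either group. With 2 members lower and 0 higher as the main count, 1 was lower where log2 had to reach 1 (Ncf1, while Cybb at -0.95 was not), and the other 10 alternatives kept 2 lower and 0 higher. The ratio of Cybb ran from -0.97 to -0.77 and that of Ncf1 from -1.70 to -1.61 over the settings that alter a ratio. The other scalings moved every ratio by at most 0.037. Of the genes around the members, 5 were lower as the main count, 2 with FPKM and 1 added, 3 with the length trend subtracted, 7 at a fold of 1.5, 1 where log2 had to reach 1, and 1 where the whole interval had to pass 0.75. A fold of 1.5 took in Cybc1 (0.60). Over all genes, 600 were higher and 948 lower as the main count. FPKM with 1 added gave 386 higher and 397 lower, the whole-interval rule 340 higher and 342 lower, and a log2 minimum of 1 gave 549 lower. An added constant shrinks the ratios of genes of low FPKM, and the stricter rules count fewer genes by construction. For 18 named genes, 198 comparisons were made, of which 180 left the call as it was, 17 lost it, 1 gained it and 0 reversed. The lost calls were those of Cybb, Prkcb, Vav3, Sod3, Gpx3, Gsr and Me1. Depth limits Nos2, Sod3 and Me1.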

Other observations

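Factors known to act at the promoters of oxidase genes were looked up after the values of Cybb and Ncf1 had been seen, as a description with no test. Spi1, which encodes the myeloid factor PU.1, had 3705 expected counts in NT and 3783 after IL-4, a log2 ratio of 0.00 (interval -0.06 to 0.07). Irf8, a macrophage regulator known at the Cybb promoter, had 2180 and 1691 counts, a log2 ratio of -0.39 (interval -0.49 to -0.30) that is not past the fold. Irf1 was higher, with 526 and 1352.96 counts and a log2 ratio of 1.33 (interval 1.19 to 1.48), and Irf2 was at 0.51, within the fold. Cebpb was just past the fold, with 1183.01 and 2084 counts and a log2 ratio of 0.79 (interval 0.69 to 0.89), but at 0.66 with the length median subtracted it was not. Rela was at -0.29 and Nfkb1 at 0.30. Cebpe, Hoxa9 and Hoxa10 had at most 4 counts in either library.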
